A study of Homo sapiens with 148 samples.

Results

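AP-1 is a family of dimeric transcription factors, and 10 genes that encode its subunits and close relatives were followed across the RNA-seq of a pancreatic differentiation: JUN, JUNB and JUND of the JUN family, FOS, FOSB, FOSL1 and FOSL2 of the FOS family, and BATF3, ATF3 and MAFF. They were chosen by name from a table of mean RNA levels that holds 49085 gene names, and each of the 10 has a single entry there. The series comprises 148 samples that profile chromatin and RNA in wild-type H9 human embryonic stem cells (hESCs), an established cell line, and in the cells derived from them in culture. RNA-seq accounts for 12 of the samples, 2 libraries at each of 6 stages. These are undifferentiated hESCs, definitive endoderm (DE, day 4), primitive gut tube (PGT, day 7), pancreatic progenitors (PP, day 14), a stage named PH whose meaning and day are not given in the sources used here, and SC-β cells, stem cell-derived β-cell cultures (day 35). All stages descend from this 1 line. The methods describe differentiation in spheroids for DE, PGT, PP and SC-β cells, and culture of undifferentiated H9 cells on a Geltrex coating. For PH no culture format is given. DE was induced with Activin A and the GSK3 inhibitor CHIR99021. Other agents were added too, among them KGF from day 4, retinoic acid from day 7 and betacellulin from day 14. The medium of days 7 and 8 included the phorbol ester PdBU, an activator of protein kinase C, and whether PGT cells were collected before that medium was added is not given in the sources used here.

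JUN proteins can pair with each other or with FOS proteins through a leucine zipper, whereas FOS proteins need a JUN partner, and the dimers bind the TPA-responsive element, named after a phorbol ester that induces the complex. Many AP-1 genes are immediate-early genes, switched on within minutes of growth factor, stress or depolarization signals through MAP kinases and without new protein synthesis. In developing tissue AP-1 sites are common in enhancers that open as cells change state.

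Positions of genes were taken from the GENCODE annotation (version 44, GRCh38, also called hg38), and JUN, JUNB and JUND each consist of 1 exon. Levels are given in TPM, a measure of transcript abundance that is corrected for transcript length and scaled to the same total in every library, so that levels of different genes can be set side by side. The authors deposited a single mean TPM per stage. Every level below is that mean, without an error or a test, and the depth behind it is unknown, so whether neighbouring stages differ beyond replicate spread cannot be said. Ratios are log2((TPM + 1) / (reference TPM + 1)), and a gene was counted as higher or lower from 2-fold on that scale. All 10 genes reached 1 TPM in at least 1 stage, and 5 reached 10 TPM in at least 1 (JUN, JUNB, JUND, FOS and FOSL2).

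The labels were set against stage markers. POU5F1, the pluripotency factor, was highest in hESCs (1449 TPM). SOX17 peaked in DE and FOXA2 in PGT. INS and GCG, the insulin and glucagon genes, were highest in SC-β cells, where GCG (2793 TPM) exceeded INS (298 TPM), so the name is used here for the culture and not for β cells alone. PH held 0.0173 TPM of the pancreatic factor PDX1, less than PP (3.17 TPM). Its 8 neural progenitor markers summed to 1050 TPM against 122 to 251 TPM in the other stages. It also held hormone RNA, with GCG at 27.2 TPM against 16.5 in PP and INS at 6.86 against 6.93. Both hormone genes had a mean of 0 at every stage before PP. Of 10 stage markers at 1 TPM or more in PH or PP, 1 was at least 2-fold higher in PH and 7 lower. Over all names, 11.5% were higher and 12.8% lower. The markers of PH were thus mixed, so PH is called here by its label only.

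The promoters of the JUN and FOS genes that lead the results are shown first, because these genes are themselves controlled through short elements near the start site. Promoter sequences from RefSeq (GRCh38.p14) were matched for 8 of the 10 genes, in 10 windows, and FOSL1 and BATF3 were not among them. The 200 bases that end just before the RefSeq start are printed 5′ to 3′ on the gene's strand. The windows are chr1:58784048-58784247 (minus strand) for JUN, chr19:12791286-12791485 (plus) for JUNB, chr19:18281623-18281822 (minus) for JUND, chr14:75278628-75278827 (plus) for FOS and chr19:45467796-45467995 (plus) for FOSB. Capitals mark the TRE variant TGACATCA, the CRE TGACGTCA, the CRE core TGACG, which also lies within the full CRE, and TATAAA, each searched on both strands.
JUN: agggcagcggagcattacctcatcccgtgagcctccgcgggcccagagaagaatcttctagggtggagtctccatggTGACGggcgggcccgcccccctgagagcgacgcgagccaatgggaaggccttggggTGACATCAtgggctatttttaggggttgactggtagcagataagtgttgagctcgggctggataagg
JUNB: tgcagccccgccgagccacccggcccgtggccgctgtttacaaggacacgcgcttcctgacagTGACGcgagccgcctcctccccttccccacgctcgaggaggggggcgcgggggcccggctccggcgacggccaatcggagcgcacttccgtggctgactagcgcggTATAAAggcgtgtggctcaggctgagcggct
JUND: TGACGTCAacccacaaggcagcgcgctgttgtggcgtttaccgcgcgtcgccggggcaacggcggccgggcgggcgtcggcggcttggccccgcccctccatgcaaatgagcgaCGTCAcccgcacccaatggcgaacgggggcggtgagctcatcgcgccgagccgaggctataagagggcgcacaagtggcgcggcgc
FOS: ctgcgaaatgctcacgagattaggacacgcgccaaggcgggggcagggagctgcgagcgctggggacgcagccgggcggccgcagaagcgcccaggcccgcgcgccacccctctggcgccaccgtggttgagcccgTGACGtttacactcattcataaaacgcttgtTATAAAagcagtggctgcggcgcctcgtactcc
FOSB: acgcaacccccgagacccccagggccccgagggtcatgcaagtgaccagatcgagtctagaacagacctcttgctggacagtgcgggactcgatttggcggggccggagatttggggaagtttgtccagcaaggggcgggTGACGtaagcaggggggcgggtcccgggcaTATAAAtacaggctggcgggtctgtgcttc
Of all 35116 promoter windows of the table, 2.61% hold TGACATCA, 1.85% TGACGTCA, 24.6% TGACG and 11.5% TATAAA. Among the 8 genes, 2 held TGACATCA (JUN and ATF3), 2 TGACGTCA (JUND and MAFF), 7 TGACG and 4 TATAAA. JUN carried TGACATCA at positions -67 to -60 from the start and no TATAAA in the window searched, 250 bases before to 50 after the start. FOS, FOSB and JUNB each held TATAAA, at -33 to -28, -30 to -25 and -31 to -26, and a TGACG at -64 to -60, -60 to -56 and -137 to -133. JUND carried TGACGTCA at -200 to -193. The consensus TRE TGACTCA, in 4.95% of all windows, was found in 1 of the 8 genes, FOSL2, from 5 to 11 bases after its start. A CArG box, the site of serum response factor, is in 1.29% of all windows and in 0 of the 8 genes within them. Sites farther than 250 bases before the start were outside the search, so the 0 does not cover them. A match here is a match of letters, not a measured binding site.

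**Figure D1:**
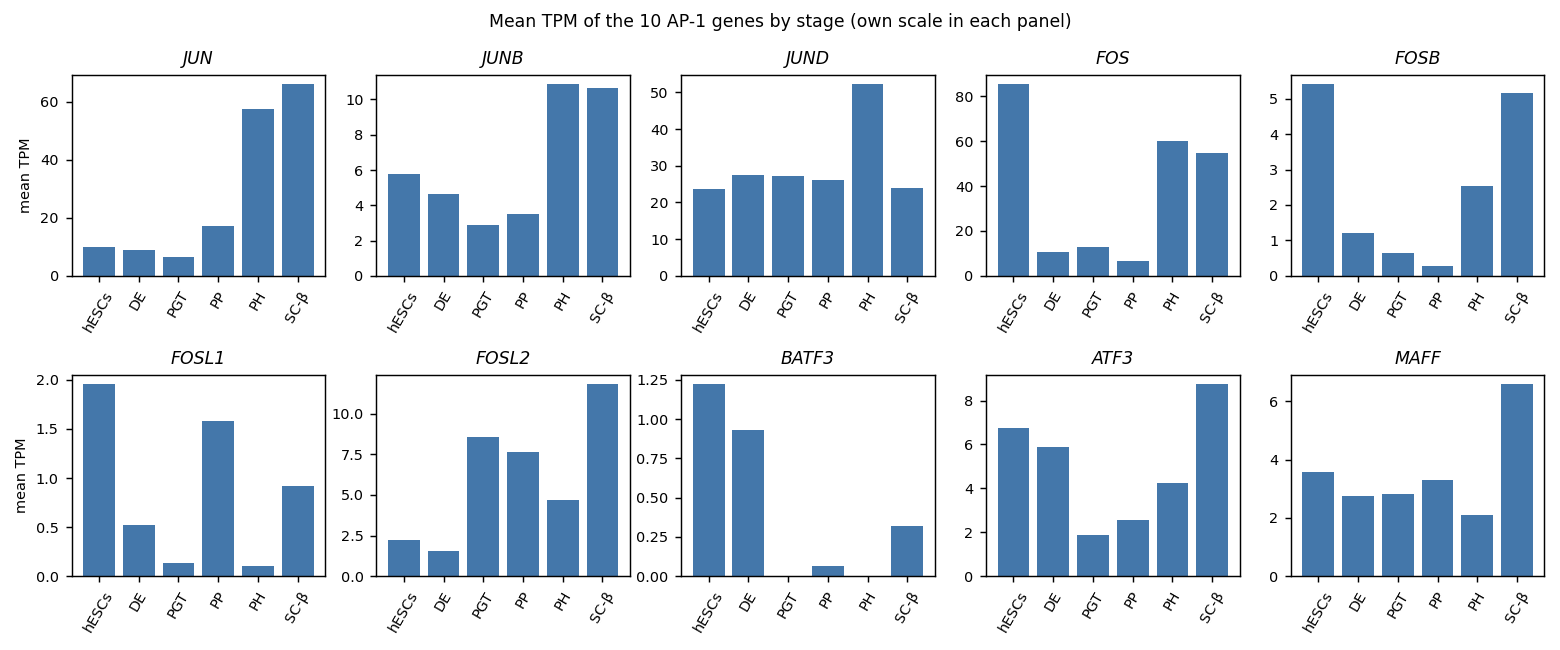
Mean TPM (vertical axis, linear and separate for each gene) of the 10 AP-1 genes at the 6 stages (horizontal axis); each bar is the authors' mean, and no error can be drawn. JUN is highest in SC-β cells (66.1 TPM), FOS in hESCs (85.5 TPM) and JUND in PH (52.2 TPM).

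JUN (chr1:58776845-58784048), the founding JUN subunit and a strong transactivator, was at 9.77 TPM in hESCs, 8.75 at DE, 6.53 at PGT, 17.0 at PP, 57.5 in PH and 66.1 in SC-β cells. It was low through PGT, intermediate in PP, and high in PH and SC-β cells, and its highest mean was 10.1 times its lowest. Its log2 ratio to hESCs was -0.52 in PGT, 0.74 in PP, 2.44 in PH and 2.64 in SC-β cells. In SC-β cells, 4.84% of the 25644 names at 1 TPM or more in either stage had a larger ratio than JUN. Stepwise, JUN was higher in PP than in PGT (1.26) and higher in SC-β cells than in PP (1.90). Among names at 1 TPM or more in the stage, 56.2% were above JUN in PGT and 6.25% in SC-β cells.

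The summed markers of mesenchymal cells were, like JUN, highest in PH and SC-β cells. The 10 markers summed to 145, 80.4, 105, 189, 972 and 1807 TPM from hESCs to SC-β cells, in the order JUN is given above. The sum was higher in PGT than in DE, where JUN was lower, and all 10 markers reached 1 TPM in PP, PH and SC-β cells. LUM was listed at 0 in hESCs and DCN in DE. From PP to PH 8 of the 10 were at least 2-fold higher and 1 lower, against 11.5% and 12.8% of all names. From PP to SC-β cells 9 were higher and 0 lower, against 20.7% and 1.84%. COL3A1, a fibrillar collagen gene, was at 14.9 TPM in PP, 349 in PH and 771 in SC-β cells, whereas THY1 was at 57.0 TPM in hESCs and 10.2, 8.16 and 9.38 at those stages, and ACTA2 at 15.2, 3.57 and 73.1. The 8 neural markers summed to 150 TPM in PP, 1050 in PH and 215 in SC-β cells. Their part in the level of JUN was not tested. In bulk RNA, a change in the share of a cell type and a change of RNA per cell cannot be told apart. Blood and endothelial markers were read as well. The 5 blood cell markers summed to 0.209 to 3.52 TPM through PH and 68.0 in SC-β cells, of which LYZ made up 65.9 TPM, while PTPRC was at 0.0451 TPM and CD14 at 0.141 TPM there and CD3E was listed at 0. The 5 endothelial markers summed to 53.1 TPM in hESCs, 200 in DE and at most 5.64 from PGT on. VWF made up 191 TPM of the sum in DE, and TEK (32.3 TPM) and KDR (20.2 TPM) most of that in hESCs, while PECAM1 and CDH5 reached at most 0.430 and 0.369 TPM at any stage.

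JUNB (chr19:12791486-12793315), which often opposes JUN on shared targets, was at 5.77 TPM in hESCs, 4.64 at DE, 2.88 at PGT, 3.50 at PP, 10.9 in PH and 10.6 in SC-β cells. Like JUN it was lowest in PGT and high in PH and SC-β cells, but in PP it was below its hESC level, and its range was 3.78 times. With the pseudocount of 1 TPM it was less than 2-fold from hESCs at every stage. In PGT the plain TPM values differed 2.01-fold and the log2 ratio was -1.09 after median-ratio rescaling, and in PH it was 1.18 without the 100 most abundant names. Its log2 ratio to PP was 1.40 in PH and 1.37 in SC-β cells. JUNB overlaps HOOK2 on the opposite strand, and whether the counting used strand is not stated.

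JUND (chr19:18279694-18281622), the subunit found in most resting cells, was at 23.7 TPM in hESCs, 27.4 at DE, 27.3 at PGT, 26.2 at PP, 52.2 in PH and 24.0 in SC-β cells. PH stood apart and the remaining 5 stages lay between 23.7 and 27.4 TPM. The log2 ratio to hESCs was 1.11 in PH. In DE, PGT, PP and SC-β cells it was 0.20, 0.20, 0.14 and 0.02, and it turned to -0.26, -0.13, -0.10 and -0.48 when each stage was rescaled by its median ratio to the others. That rescaling moved log2 ratios to hESCs down by 0.48 in DE, 0.34 in PGT, 0.25 in PP, 0.03 in PH and 0.52 in SC-β cells for genes well above 1 TPM. The ratios of JUN in PH and SC-β cells stayed past 2-fold under it.

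The leading JUN gene therefore differed between stages. JUND supplied 60.4% of the summed JUN family TPM in hESCs, 67.2% at DE, 74.4% at PGT, 56.1% at PP, 43.3% in PH and 23.8% in SC-β cells. JUN supplied 24.9%, 21.5%, 17.8%, 36.4%, 47.7% and 65.6% at the same stages. JUN thus exceeded JUND only in PH (1.10 times) and SC-β cells (2.76 times). JUNB supplied between 7.48% (PP) and 14.7% (hESCs). A share within a stage does not depend on how that stage was scaled.

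**Figure D2:**
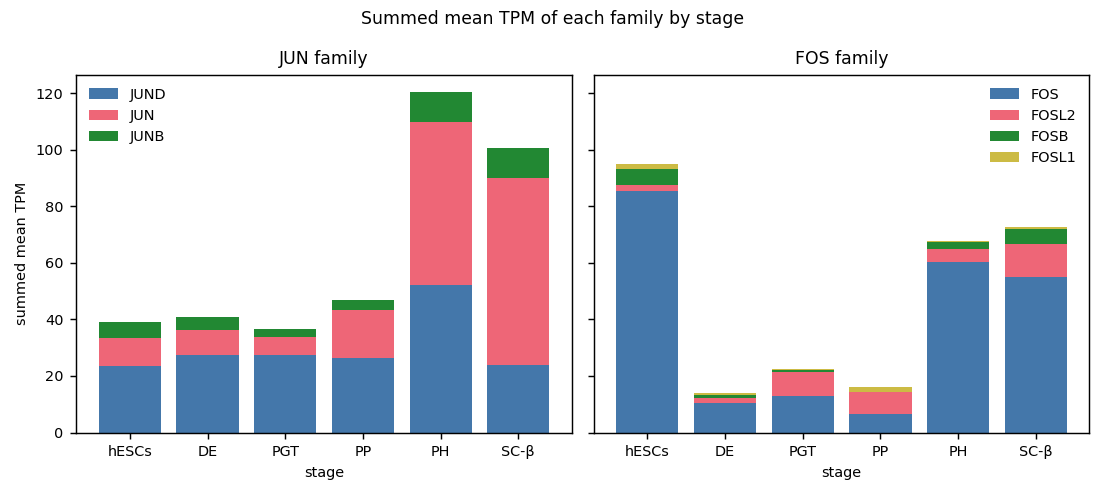
Summed mean TPM (vertical axis, linear from 0) of the JUN family (left) and FOS family (right) at each stage, with each gene's part as a coloured segment. The JUN family sum lies between 36.7 and 46.7 TPM from hESCs to PP and at 121 and 101 TPM in PH and SC-β cells, and the FOS family sum is lowest in DE (13.8 TPM).

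FOS (chr14:75278826-75282230), the prototype immediate-early gene, was at 85.5 TPM in hESCs, 10.5 at DE, 13.0 at PGT, 6.54 at PP, 60.3 in PH and 54.9 in SC-β cells. It was high at the undifferentiated stage, low in the 3 stages that followed, and high again in PH and SC-β cells. The mesenchymal markers summed to 145 TPM in hESCs, where FOS was highest, and to 189 TPM in PP, 972 in PH and 1807 in SC-β cells, and their part in the level of FOS was not tested. The log2 ratio to hESCs was -2.91 in DE, -2.62 in PGT and -3.52 in PP, and only 0.511% of names in DE and 0.841% in PP had a lower one. Against PP it was 3.02 in PH and 2.89 in SC-β cells, where 0.957% and 1.03% of names had a larger one. In SC-β cells FOS was less than 2-fold below hESCs (-0.63) on the deposited scale and more than 2-fold below after the median-ratio rescaling (-1.14).

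FOSB (chr19:45467995-45475179), a second signal-induced FOS gene, was at 5.41 TPM in hESCs, 1.22 at DE, 0.642 at PGT, 0.285 at PP, 2.52 in PH and 5.17 in SC-β cells. Its order across stages was close to that of FOS, with the same 3 low stages. The log2 ratio to hESCs was -1.53 in DE, -1.96 in PGT and -2.32 in PP, and that of SC-β cells to PP was 2.26. FOSB overlaps ERCC1 on the opposite strand. Over the 6 stage means, the Pearson r of log2(TPM + 1) between FOS and FOSB was 0.94, the highest of the 45 pairs of the 10 genes, followed by 0.88 for JUN and JUNB and 0.85 for FOSB and ATF3. That of JUN and FOS was 0.50. These coefficients rest on 6 points from averaged libraries and are a description.

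FOSL2 (chr2:28392448-28417317), encoding FRA-2, a FOS protein that accumulates more slowly and lacks the strong transactivation domain of FOS, was at 2.197 TPM in hESCs, 1.53 at DE, 8.54 at PGT, 7.63 at PP, 4.70 in PH and 11.8 in SC-β cells. It was low in hESCs, where FOS was highest, and lowest in DE, where FOS was also low. It was intermediate in PGT, where FOS was low, and highest in SC-β cells, where FOS was at 54.9 TPM. The Pearson r of FOS and FOSL2 over the 6 stage means was -0.08. The log2 ratio of PGT to DE was 1.92, and the ratio to hESCs was 1.58 in PGT, 1.43 in PP, 0.83 in PH and 2.00 in SC-β cells. FOSL2 overlaps the antisense gene FOSL2-AS1, and reads of the pair may not be separated.

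FOSL1 (chr11:65892049-65900573), encoding FRA-1, was at 1.95 TPM in hESCs, 0.521 at DE, 0.136 at PGT, 1.58 at PP, 0.0994 in PH and 0.915 in SC-β cells. It passed 1 TPM only in hESCs and PP. The log2 ratio of PP to PGT was 1.18 and that of PH to PP was -1.23. Values below 1 TPM have no known precision here.

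Within the FOS family, FOS supplied 89.9% of the summed TPM in hESCs, 76.3% at DE, 58.3% at PGT, 40.8% at PP, 89.2% in PH and 75.4% in SC-β cells. FOSL2 supplied 2.31%, 11.0%, 38.2%, 47.6%, 6.96% and 16.2%. PP was thus the single stage in which FOSL2 exceeded FOS. FOSL1 reached 9.85% there. The FOS family sum was 2.42 times the JUN family sum in hESCs and below it at every other stage, between 0.339 times in DE and 0.723 times in SC-β cells.

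ATF3 (chr1:212565334-212620777), a stress-induced factor that can pair with JUN and represses many targets, was at 6.75 TPM in hESCs, 5.89 at DE, 1.86 at PGT, 2.57 at PP, 4.27 in PH and 8.74 in SC-β cells. It was close to its hESC level in DE, where FOS was low, and lowest in PGT. Its log2 ratio was -1.27 from DE to PGT and 1.45 from PP to SC-β cells. In SC-β cells its ratio to hESCs was 0.33 and became -0.13 after rescaling. MAFF (chr22:38200767-38216507), a small MAF protein without a transactivation domain, was at 3.58 TPM in hESCs, 2.75 at DE, 2.81 at PGT, 3.30 at PP, 2.08 in PH and 6.59 in SC-β cells. It was less than 2-fold from hESCs at every stage and highest in SC-β cells (0.73). MAFF overlaps PLA2G6 on the opposite strand. BATF3 (chr1:212686417-212699840), known from dendritic cells and lacking a transactivation domain, was at 1.22 TPM in hESCs, 0.929 in DE, 0.0662 in PP and 0.317 in SC-β cells and was listed at 0 in PGT and PH. It passed 1 TPM only in hESCs.

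**Figure D3:**
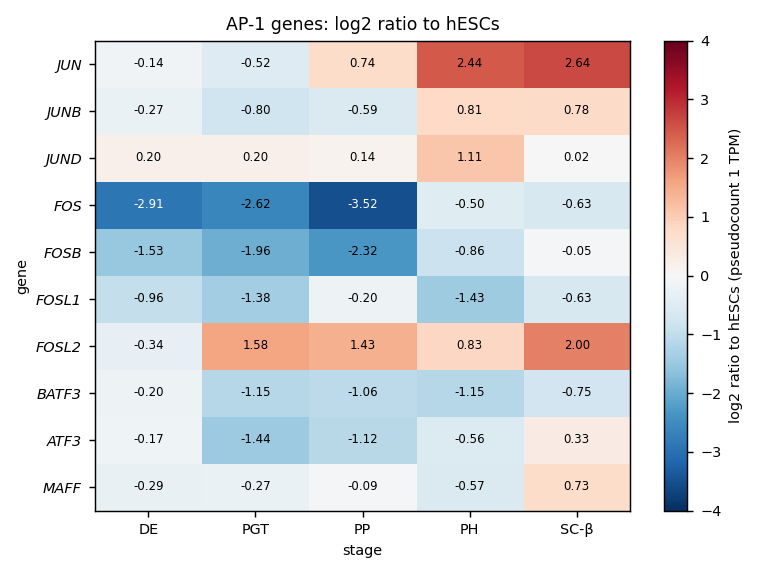
Log2 ratio to hESCs (colour and printed value, pseudocount 1 TPM) of the 10 AP-1 genes (rows) at 5 stages (columns), red above and blue below hESCs. FOS is at -3.52 in PP, JUN at 2.64 and FOSL2 2.00 in SC-β cells.

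Counted together, the 10 genes were seldom higher than hESCs during the early stages. In DE, 0 of 10 were at least 2-fold higher, against 28.2% of all names tested, and 2 were lower (FOS and FOSB), against 5.55%. In PGT, 1 was higher (FOSL2), against 23.4% of names, and 5 were lower (FOS, FOSB, FOSL1, BATF3 and ATF3), against 10.0%. In PP, 1 was higher (FOSL2), against 18.9%, and 4 were lower (FOS, FOSB, BATF3 and ATF3), against 9.63%. In PH, 2 were higher (JUN and JUND), against 27.3%, and 2 lower (FOSL1 and BATF3), against 18.9%. The higher count in PH was 4 without the 100 most abundant names. In SC-β cells, 2 were higher (JUN and FOSL2), against 42.4%, and 0 lower, against 7.08%. The lower count there was 2 with a pseudocount of 0.1 TPM, and 1 after median-ratio rescaling or without the 100 most abundant names. At this minimum of 1 TPM, the share of lower genes was above the background in DE, PGT and PP and near it in PH. Among the lower calls, FOSB in PGT and PP, FOSL1 in PGT and PH, and BATF3 in PGT, PP and PH were below 1 TPM in that stage. They were counted through their hESC level alone and could not have been called higher. With a minimum of 10 TPM the lower count was 1 in DE, PGT and PP and 0 in PH. That minimum left only FOS and JUND to be called in DE and PGT. JUN was added to them in PP, and JUN and JUNB in PH. The share over all names at that minimum is not given here, so the smaller counts are not set against a background. The shares are therefore a description of the counts. The share of higher genes was below the background in DE, PGT and SC-β cells, and in PP and PH it lay within 1 gene of it. That background includes names below 1 TPM in hESCs, whereas all 10 genes reached 1 TPM there.

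The median log2 ratio of the 10 genes to hESCs was -0.28 in DE, -0.98 in PGT, -0.39 in PP, -0.53 in PH and 0.17 in SC-β cells. The same median over all names at 1 TPM or more in either stage was 0.58, 0.41, 0.31, 0.28 and 0.83. All 10 genes lay below it in DE, 9 in PGT, 8 in PP, 6 in PH and 8 in SC-β cells. JUN was the member farthest above it in PH and in SC-β cells. All 10 genes reached 1 TPM in hESCs, whereas the names behind this median include some that reached it only in the other stage. Among names at 10 TPM or more in either stage, the median was 0.39, 0.24, 0.13, -0.08 and 0.46. JUND in PP (0.14), and JUNB (0.78) and MAFF (0.73) in SC-β cells, lay above this second median and below the first.

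Between successive stages, more members were higher than lower from PP on. From DE to PGT, 1 of the 8 members that reached 1 TPM at either stage was higher (FOSL2), against 4.94% of names, and 1 lower (ATF3), against 10.6%. From PGT to PP, 2 of 8 were higher (JUN and FOSL1), against 6.30%, and 0 lower, against 7.46%. From PP to SC-β cells, 5 of 9 were higher (JUN, JUNB, FOS, FOSB and ATF3), against 20.7%, and 0 lower, against 1.84%. From PP to PH, 4 of 9 were higher (JUN, JUNB, FOS and FOSB), against 11.5%, and 1 lower (FOSL1), against 12.8%, with JUND just under 2-fold (0.97). FOSB was below 1 TPM in PP (0.285), and FOSL1 in PGT (0.136) and PH (0.0994). They were counted in these comparisons through the other stage alone. FOSB could thus not have been called lower against PP, nor FOSL1 lower against PGT or higher in PH, so these shares too are a description. The comparisons of PH and SC-β cells share the PP mean, as the 5 comparisons with hESCs share the hESC mean. The share of higher members was above that of all names in both, and the median ratio of the members was 1.37 in SC-β cells and 0.97 in PH, against 0.45 and -0.10 over all names.

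The further AP-1 partners were counted next, as a list of 10 BATF, JDP, ATF and MAF genes outside the 10 members. Against hESCs, 2 were higher and 1 lower in DE, 2 and 2 in PGT, 2 and 1 in PP, 1 and 2 in PH, and 3 and 1 in SC-β cells, of 7 to 9 at 1 TPM or more. Over all names, 28.2% were higher and 5.55% lower in DE, 23.4% and 10.0% in PGT, 18.9% and 9.63% in PP, 27.3% and 18.9% in PH, and 42.4% and 7.08% in SC-β cells. With so few genes tested, the counts of higher genes lay within 1 gene of these shares at all 5 stages. Its median log2 ratio was between -0.68 in SC-β cells and 0.37 in PP, above that of all names in PP alone. JDP2, a repressor that pairs with JUN, was lower than hESCs at all 5 stages, from 15.1 TPM to between 3.43 TPM (PP) and 6.89 TPM (PGT). MAFG, a small MAF, was at 22.0 TPM in hESCs and 8.59 in PH (-1.26). MAF, a large MAF factor, was at 0.329 TPM in hESCs and 23.3 in PGT (4.19). ATF7, a relative of ATF2 that pairs with JUN, was at 2.63 TPM in hESCs and 15.7 in SC-β cells (2.21), and ATF2 itself at 29.6 and 60.3 (1.00).

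Of 37 kinases and promoter factors that act upstream of AP-1, 5 were higher and 0 lower than hESCs in DE, 6 and 2 in PGT, 3 and 2 in PP, 8 and 4 in PH, and 12 and 2 in SC-β cells, of 36 or 37 at 1 TPM or more. The higher genes made up 13.9% of those tested in DE, against 28.2% of all names, 16.7% in PGT (23.4%), 8.33% in PP (18.9%), 21.6% in PH (27.3%) and 32.4% in SC-β cells (42.4%). The lower genes made up 0% to 10.8%, against 5.55% to 18.9% of all names. Their median log2 ratio was 0.56, 0.42, 0.25, 0.11 and 0.50, beside the medians over all names given above. MAPK10, encoding JNK3, was at 4.14 TPM in hESCs and 71.4 in DE (3.82), a stage in which JUN was at 8.75 TPM. The p38β gene MAPK11 was at 24.7 TPM in PH against 0.910 in hESCs (3.75). Among protein kinase C genes, PRKCE was highest in SC-β cells, at 25.0 TPM against 0.929 in hESCs (3.75), and PRKCQ was lowest in PH, at 0.561 TPM against 21.9 (-3.88). MAP2K1, encoding MEK1, was at 27.1 TPM in hESCs and 12.5 in PP (-1.06). SRF, which binds the serum response element of FOS, was between 14.2 and 21.0 TPM and less than 2-fold from hESCs at all 5 stages. The part of the genes of this list in the levels of JUN and FOS was not tested.

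Other immediate-early genes did not share one pattern. Of 35 listed, 8 were higher and 3 lower than hESCs in DE, 6 and 4 in PGT, 5 and 4 in PP, 8 and 8 in PH, and 9 and 3 in SC-β cells, of 28 to 32 at 1 TPM or more. The share of higher genes was 28.6% in DE, against 28.2% of all names, 20.7% in PGT (23.4%) and 16.7% in PP (18.9%). It was 26.7% in PH (27.3%) and 28.1% in SC-β cells (42.4%). The share of lower genes was 10.7% in DE (5.55%), 13.8% in PGT (10.0%) and 13.3% in PP (9.63%). In PH it was 26.7% (18.9%) and in SC-β cells 9.38% (7.08%). Their median log2 ratio was 0.36 in DE, -0.13 in PGT, -0.16 in PP, -0.08 in PH and 0.62 in SC-β cells, below that of all names at each stage. EGR1, a zinc finger factor induced by the same signals as FOS, was at 6.24 TPM in hESCs, 3.81 at DE, 2.05 at PGT, 1.35 at PP, 9.94 in PH and 11.7 in SC-β cells, with its lowest stage in PP as for FOS. CTGF, a secreted matrix protein gene, was at 49.0 TPM in hESCs, 5.44 in PP (-2.95) and 21.6 in SC-β cells. Other genes of the list were high where FOS was low. DUSP4, a MAP kinase phosphatase, was at 2.98 TPM in hESCs and 60.1 in DE (3.94), and BTG2, an antiproliferative gene, at 5.67 and 51.8 in PGT (2.99). In PH, where FOS was at 60.3 TPM, DUSP5 was at 0.669 TPM against 23.1 in hESCs (-3.85) and SPRY4, an inhibitor of receptor tyrosine kinase signalling, at 3.32 against 41.0 (-3.28). EGR2 was at 0.716 TPM in hESCs and 11.3 in SC-β cells (2.84). From PP to SC-β cells, 9 were higher and 3 lower of 31 at 1 TPM or more, against 20.7% and 1.84% of all names. From PP to PH, 10 were higher and 8 lower of 30, which is 33.3% and 26.7%, against 11.5% and 12.8% of all names.

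**Figure D4:**
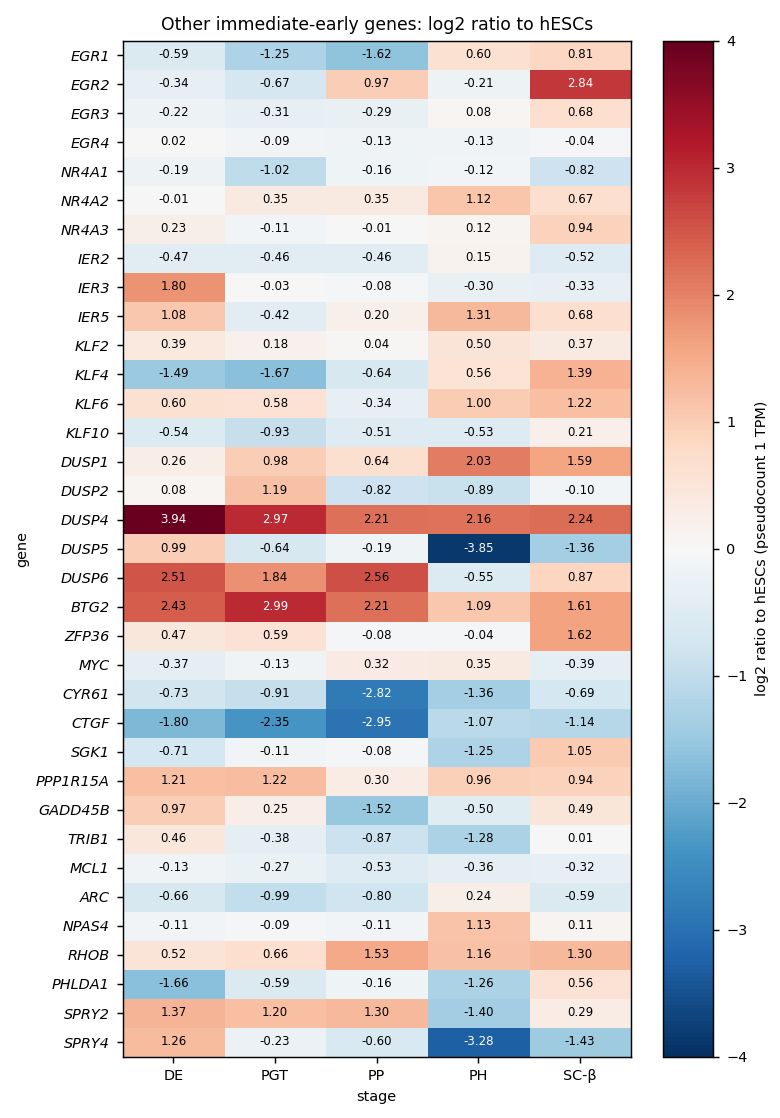
Log2 ratio to hESCs (colour and printed value, pseudocount 1 TPM) of the 35 other immediate-early genes (rows) at 5 stages (columns). EGR1 is below hESCs in DE, PGT and PP and above in PH and SC-β cells, whereas DUSP4 and BTG2 are above hESCs at all 5 stages.

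Genes known as AP-1 targets in other tissues were more often lower than higher than hESCs until SC-β cells. Of 30 listed, 4 were higher and 11 lower in DE, 1 and 13 in PGT, 3 and 9 in PP, 1 and 15 in PH, and 9 and 8 in SC-β cells, of 23 to 27 at 1 TPM or more. The lower genes made up 47.8% of those tested in DE, against 5.55% of all names, 56.5% in PGT (10.0%), 37.5% in PP (9.63%), 65.2% in PH (18.9%) and 29.6% in SC-β cells (7.08%). Their median log2 ratio was -0.64 in DE, -1.06 in PGT, -0.79 in PP, -1.45 in PH and 0.08 in SC-β cells, each below that of all names. From PP to SC-β cells, 10 of 24 were higher and 3 lower, against 20.7% and 1.84% of all names. From PP to PH 2 of 21 were higher and 6 lower, against 11.5% and 12.8%, while JUN, JUNB, FOS and FOSB were higher than PP in both. SPP1, encoding osteopontin, was at 837 TPM in hESCs and 0.446 in DE (-9.18). CD44, a receptor for hyaluronan, was at 18.4 TPM in hESCs, 0.137 in DE (-4.10) and 30.8 in SC-β cells. CDKN1A, the cell cycle inhibitor p21, was at 50.0 TPM in hESCs, 1.15 in DE (-4.57) and 51.4 in PP. In the other direction, FN1, fibronectin, was at 90.8 TPM in hESCs and 7276 in PGT (6.31), and VIM, vimentin, at 226 TPM in hESCs and 1767 in SC-β cells (2.96). AREG, an EGF receptor ligand, was at 0.102 TPM in hESCs and 15.7 in SC-β cells (3.93). VIM and FN1 are also abundant in mesenchymal cells, whose markers are given above with JUN.

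For the 5 members that reached 10 TPM, the names with the most similar stage profiles were sought by Pearson r over the 6 stages among 12848 names at 10 TPM or more in some stage, clone names counted but not named. For JUN, they were AMPH (0.995), DNM3OS (0.993) and MYCBP2 (0.992), and 136 names passed 0.95. AMPH, encoding the endocytic protein amphiphysin, was at 2.49 TPM in hESCs, 22.9 in PH and 20.1 in SC-β cells. For FOS 3 names passed 0.95, the lowest number of these 5 members, and they were RAB38 (0.980), PSMG4 (0.966) and RBPJ (0.960). For JUNB, EPS15 (0.980), CBLN1 (0.978) and SYT2 (0.977) led 15 such names. For JUND, SELK (0.995), OVCA2 (0.994) and CADM3 (0.987) led 47, and for FOSL2, SLC46A1 (0.992), HARS (0.991) and SERPINA1 (0.990) led 19. Each coefficient rests on 6 averaged points and is a description.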

How the data were processed

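RNA was extracted with Trizol. Ribosomal RNA was removed with a RiboMinus kit according to the methods, while the labels also name a TruSeq Stranded mRNA kit, and which applied to these libraries is not settled here. The authors aligned paired-end reads to hg38 with HISAT2 (2.2.0) and obtained TPM per gene with StringTie (2.1.6). The annotation is not given in the sources used here. The deposited table holds 50451 entries in TPM, averaged over the 2 libraries of each stage, under 49085 names. Entries that share a name (231 names) were summed. The values of single libraries and the reads behind them are not analysed here, so no test, error or interval could be computed, and the precision at each depth is unknown. The other assays of the series were not used.

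Log2 ratios used a pseudocount of 1 TPM, and calls needed 2-fold among names at 1 TPM or more in either stage. The calculation was tested on simulated data. Alternatives were a pseudocount of 0.1, median-ratio rescaling over 13938 names at 1 TPM or more in every stage, totals without the 100 most abundant names, the highest entry for repeated names, a 4-fold threshold, and a minimum of 10 TPM. Promoters came from RefSeq (250 bases before to 50 after the start) and positions from GENCODE version 44.

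The 10 genes, the gene lists and the marker lists were chosen with earlier results of these data known. Some genes of the lists are not reported here, and the counts and medians were computed without them. The rule for named genes took all 10 members, the 3 names with the highest Pearson r for each member at 10 TPM or more in some stage (clone names left out), and, from each list, those that reached 10 TPM at either stage compared and had the 3 largest ratios to hESCs in each direction. SRF and EGR1, and single marker genes, were named outside this rule after their values were seen. A few older symbols (CTGF and SELK among them) are printed as the table has them. Python 3.11.15 was used with numpy 2.4.6, pandas 2.3.3 and matplotlib 3.10.9.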

Additional observations from a re-analysis of the deposited data

How the results depend on the processing

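Keeping the highest entry could not change a gene with 1 entry and is left out of these tallies. Of 150 log2 ratios of the 10 genes to hESCs under the other alternatives, 131 stayed on the same side of 2-fold with the same sign, 12 passed 2-fold in the same direction, 7 changed sign while under 2-fold and 0 reversed from past 2-fold. The sign changes were those of JUND and ATF3 given with their levels, that of JUND in SC-β cells without the 100 most abundant names (-0.12) and that of MAFF in PP without them (0.0021). Of 90 counts of the 10 genes, 61 stayed within 1.5 times. With a 4-fold threshold the counts were 1 lower in DE, 0 higher and 1 lower in PGT, 0 higher and 2 lower in PP, and 1 higher and 0 lower in PH against hESCs. They were 0 higher and 0 lower in PGT against DE, 0 higher in PP against PGT, 1 higher and 0 lower in PH against PP, and 2 higher in SC-β cells against PP. With a minimum of 10 TPM the counts were 1 lower in DE, 0 higher and 1 lower in PGT, 0 higher and 1 lower in PP, and 0 lower in PH against hESCs, then 0 higher and 0 lower in PGT against DE, 1 higher in PP against PGT, 0 lower in PH against PP, and 3 higher in SC-β cells against PP. Both settings allow fewer calls by construction, the second because fewer of the 10 genes enter. These counts are given without the share over all names. Without the 100 most abundant names, 4 were higher in PH and 1 lower in SC-β cells against hESCs, and 2 lower in PGT against DE. In SC-β cells against hESCs, 2 were lower with a pseudocount of 0.1 and 1 after median-ratio rescaling. The cause was not tested. No paired analysis was possible because each deposited column is already a mean over its replicates, and for the same reason neither replicate could be left out. Values below 1 TPM, which include FOSL1 and BATF3 at most stages, have no known precision.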
